A study of Mus musculus with 6 samples.

Results

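Expression of 7 CC chemokine genes (Ccl2, Ccl3, Ccl4, Ccl5, Ccl7, Ccl12 and Ccl24) and of the chemokine receptor gene Ccr2 was examined in mouse osteoclast precursors after 2 days of culture in M-CSF, with or without sRANKL. The 6 ligand genes on chromosome 11 were all brighter in the sRANKL dish of each of the 3 experiments, from 2.46-fold for Ccl3 to 61.5-fold for Ccl12. Ccl24, on chromosome 5, and Ccr2, on chromosome 9, were dimmer, at 0.430 and 0.490 of the level without sRANKL. These 8 genes, of 522 named genes in a table of 2890 probe sets, were chosen by the authors' own list of probe sets that differed at least 2-fold between the groups on these arrays. Their difference between the groups is therefore described here and not tested. Ccr2 lay nearest to the 2-fold limit among the 8, and rows outside that list carry no gene name here, so no CC gene just beyond it can be given. Each of the 8 genes had 1 named probe set.

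CC chemokines are small secreted proteins that draw leukocytes along a gradient by binding G protein-coupled receptors. Ccl2, Ccl7 and Ccl12 are monocyte chemoattractants of the mouse that act on Ccr2, the receptor by which inflammatory monocytes leave the bone marrow. Ccl3, Ccl4 and Ccl5 are inflammatory chemokines that draw monocytes and T cells, and Ccl24 (eotaxin-2) is a ligand of the eosinophil receptor Ccr3. Osteoclasts arise from the same myeloid precursors as macrophages. M-CSF sustains these precursors, and RANKL is the cytokine that commits them to the osteoclast fate.

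In each of 3 independent experiments, marrow from 3 wild-type SV129/BL6 mice (6 to 12 weeks old per the methods for marrow cultures) was pooled, and the precursor layer was divided between a pair of dishes. One dish received M-CSF (20 ng/ml) with sRANKL (200 ng/ml) purified from a pGEX-4T-1 construct, and its partner received M-CSF (20 ng/ml) alone and is called the control dish below. Both had 48 hours of M-CSF (10 ng/ml) beforehand, and the sample records put the precursors at about 30% of the collected layer, so each dish held a mixture of cells. RNA of each dish was hybridised to 1 Affymetrix Mouse Gene 1.0 ST array, giving 3 arrays per group, and all values below are RMA intensities as deposited, on a linear scale unless log2 is named. In such bulk RNA, fewer cells of a type and less RNA per cell cannot be told apart.

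Median log2 intensity over the table was 8.32, 8.53 and 8.45 on the sRANKL arrays and 8.16, 8.44 and 8.31 on the control arrays, in Experiments 1, 2 and 3. Centring each array on its median lowered every log2 fold change by 0.15 and quantile normalization lowered the median log2 fold change by 0.21. Neither changed the direction of any of the 8 genes. For all 8, the arrays of the 2 groups did not overlap, with 6 genes higher and 2 lower. Over the 2859 rows (1 per named gene, with unnamed probe sets), 45.2% were higher without overlap and 32.6% were lower without overlap. By limma, 44.9% of rows were higher and 33.2% lower at an adjusted p under 0.05. The deposited rows had been filtered beforehand by rules not given in the sources used here. These shares therefore hold for the rows of this table and not for all genes on the array. Since the list drew on the same contrast, nothing is read from the 8 of 8.

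RefSeq promoter sequences (GRCm38.p6) were matched for 3 of the 8 genes, Ccl12, Ccl3 and Ccr2. These are shown because the promoter table used here held no match for the other 5. They include the ligands with the largest and the smallest mean difference on chromosome 11, and the receptor. Each run is the 250 bases before the annotated start, on the strand of the gene, at chr11:82101595-82101844 (plus strand), chr11:83649379-83649628 (minus strand) and chr9:124101933-124102182 (plus strand). Capitals mark matches to the motifs searched.
Ccl12: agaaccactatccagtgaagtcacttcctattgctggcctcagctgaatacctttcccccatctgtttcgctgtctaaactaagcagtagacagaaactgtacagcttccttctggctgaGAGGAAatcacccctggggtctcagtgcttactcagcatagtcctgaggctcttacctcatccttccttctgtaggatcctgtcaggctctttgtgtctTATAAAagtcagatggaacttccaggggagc
Ccl3: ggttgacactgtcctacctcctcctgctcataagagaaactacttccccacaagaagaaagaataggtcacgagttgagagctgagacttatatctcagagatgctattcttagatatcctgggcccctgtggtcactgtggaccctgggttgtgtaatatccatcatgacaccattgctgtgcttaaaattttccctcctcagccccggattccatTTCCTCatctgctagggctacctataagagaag
Ccr2: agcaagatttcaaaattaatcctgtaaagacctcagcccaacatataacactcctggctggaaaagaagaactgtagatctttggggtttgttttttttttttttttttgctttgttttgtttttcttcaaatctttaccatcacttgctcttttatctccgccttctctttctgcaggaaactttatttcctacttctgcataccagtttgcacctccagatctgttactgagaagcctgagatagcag

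Both strands were searched for TATAAA, for the PU.1 core GAGGAA, for the AP-1 motif TGANTCA and for the kappa B motif. TATAAA was found in Ccl12 only, from 31 to 26 bases before the start. It is present in 12.4% of the 32841 windows of this length in the promoter table. GAGGAA was found once in Ccl12, from 130 to 125 bases before the start, and once in Ccl3 on the opposite strand (printed as TTCCTC), from 33 to 28 bases before the start, and it is present in 23.3% of windows. No match to TGANTCA (6.75% of windows) or to the kappa B motif (3.90% of windows) lay in any of the 3 windows. The matches do not overlap each other.

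Of the Ccr2 ligands Ccl2 (MCP-1), Ccl7 (MCP-3) and Ccl12 (MCP-5), the latter pair showed the largest mean differences of the 8 genes, and Ccl2 came after Ccl5. Ccl12 had an intensity of 3663, 4515 and 3831 in the sRANKL dishes of Experiments 1, 2 and 3, and of 230.1, 47.8 and 24.8 in the control dishes. The sRANKL arrays lay close together, while the control array of Experiment 1 was the brightest of its group and that of Experiment 3 the dimmest. The ratio between partner dishes was 15.9, 94.5 and 155, and the mean log2 difference was 5.94 ± 1.73 (SD of 3 experiments). The SD of log2 intensity was 1.65 over the control arrays and 0.16 over the sRANKL arrays. The lowest intensity anywhere in the table was 13.2, and whether 24.8 was above background was not analysed here. With the control array of Experiment 1 left out the difference was 116-fold, and with that of Experiment 3 left out it was 38.0-fold.

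Ccl7 had an intensity of 7967, 8383 and 7470 in the sRANKL dishes, and of 576.9, 305.0 and 183.9 in the control dishes. The order of the control arrays was that of Ccl12, with Experiment 1 brightest and Experiment 3 dimmest. The ratio was 13.8, 27.5 and 40.6, and the mean log2 difference 4.64 ± 0.79 (SD, n = 3). Ccl2 had an intensity of 6157, 6437 and 5809 in the sRANKL dishes, and of 585.2, 1061 and 498.5 in the control dishes. Its control array of Experiment 2 was the bright one, unlike those of Ccl7 and Ccl12. The ratio was 10.5, 6.07 and 11.7, and the mean log2 difference 3.18 ± 0.51 (SD, n = 3).

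Ccl3 and Ccl4 differed less than the Ccr2 ligands, and Ccl5 differed about as much as Ccl2. Ccl5 (RANTES), a chemoattractant for T cells and monocytes, had an intensity of 3086, 3616 and 1692 in the sRANKL dishes and of 422.9, 173.6 and 242.2 in the control dishes. The ratio was 7.30, 20.8 and 6.99, and the mean log2 difference 3.35 ± 0.89 (SD, n = 3), so that Experiment 2 had both the brightest sRANKL array and the dimmest control array. Ccl4 (MIP-1 beta) had an intensity of 1046, 1136 and 735.4 in the sRANKL dishes and of 288.1, 371.4 and 288.3 in the control dishes. Its ratio was 3.63, 3.06 and 2.55, and the mean log2 difference 1.61 ± 0.25 (SD, n = 3). Ccl3 (MIP-1 alpha), which binds Ccr1 and is known to act on osteoclast precursors, had the smallest mean difference of the 6 chromosome 11 ligands. Its intensity was 4304, 4410 and 2939 in the sRANKL dishes and 1681, 1673 and 1329 in the control dishes. The ratio was 2.56, 2.64 and 2.21, and the mean log2 difference 1.30 ± 0.14 (SD, n = 3). For all 3 of these genes the sRANKL array of Experiment 3 was the dimmest of its group.

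Ccl24 and Ccr2 differed in the opposite direction. Ccl24, which in mouse macrophages is known as a product of interleukin-4 stimulation, had an intensity of 97.2, 81.8 and 92.1 in the sRANKL dishes and of 247.0, 156.9 and 238.0 in the control dishes. The ratio was 0.394, 0.521 and 0.387, and the mean log2 difference -1.22 ± 0.24 (SD, n = 3). Experiment 2 had the dimmest array of both groups. Ccr2, the receptor of Ccl2, Ccl7 and Ccl12, had an intensity of 1597, 2041 and 2363 in the sRANKL dishes and of 3518, 4317 and 4313 in the control dishes. The ratio was 0.454, 0.473 and 0.548, and the mean log2 difference -1.03 ± 0.14 (SD, n = 3). The brightest sRANKL array of Ccr2 stood 1.49-fold below the dimmest control array. That inner distance was smaller than for any of the other 7 genes, the widest being 15.9-fold for Ccl12.

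**Figure D1:**
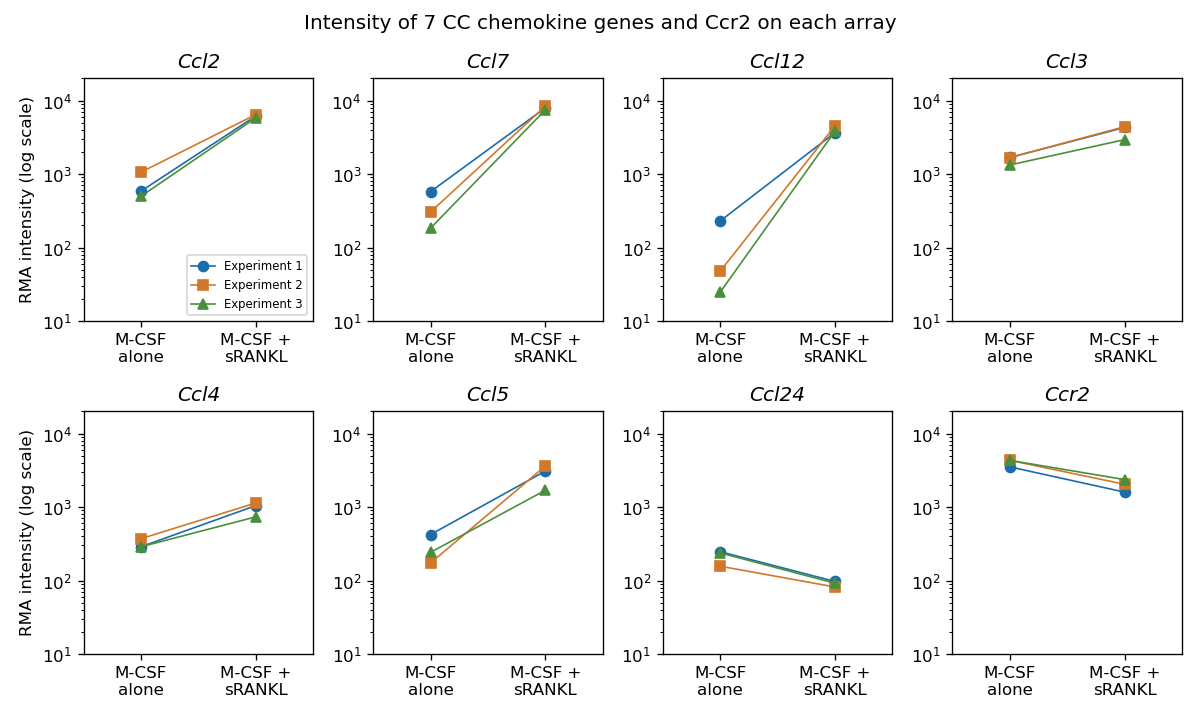
RMA intensity (log axis) of each gene on the 6 arrays, with a line joining the partner dishes of each experiment. The 3 lines of Ccl2, Ccl7, Ccl12, Ccl3, Ccl4 and Ccl5 run upward to M-CSF + sRANKL and those of Ccl24 and Ccr2 run downward, and the control points of Ccl12 spread from 24.8 to 230.1 while its sRANKL points lie between 3663 and 4515.

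The chromosome 11 ligands were next set against Ccl24 and Ccr2 within each experiment, as differences of log2 ratios between partner dishes. The mean log2 ratio of the 6 ligands was 2.88, 3.56 and 3.58 in Experiments 1, 2 and 3. It exceeded that of Ccl24 by 4.22, 4.50 and 4.95, a mean of 4.55 ± 0.37 (SD, n = 3), and that of Ccr2 by 4.02, 4.64 and 4.44, a mean of 4.37 ± 0.32 (SD, n = 3). Since the list holds only genes that differed at least 2-fold, a gap between genes higher and genes lower was set by that choice, and these distances are given as a description. Between Ccl24 and Ccr2 the difference was -0.21, 0.14 and -0.50, with a mean of -0.19 ± 0.32 (SD, n = 3), and its sign was not the same in all 3 experiments.

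Among the ligands the order of the ratios was largely the same in each experiment. In all 3, Ccl12 was ahead of Ccl7, Ccl4 was ahead of Ccl3 at the end of the order, and Ccl2 and Ccl5 lay between these pairs. Ccl2 came before Ccl5 in Experiments 1 and 3 and after it in Experiment 2, so this pair of neighbours was not separated. The mean log2 ratio of the Ccr2 ligands (Ccl2, Ccl7 and Ccl12) was 3.73, 4.65 and 5.39, and that of Ccl3, Ccl4 and Ccl5 was 2.03, 2.46 and 1.77. The former was larger by 1.70, 2.18 and 3.62, a mean of 2.50 ± 1.00 (SD, n = 3). All these genes came from the list made on the same contrast, so this distance too is a description. Its value in Experiment 3 includes the control intensity of 24.8 for Ccl12, for which background was not analysed.

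**Figure D2:**
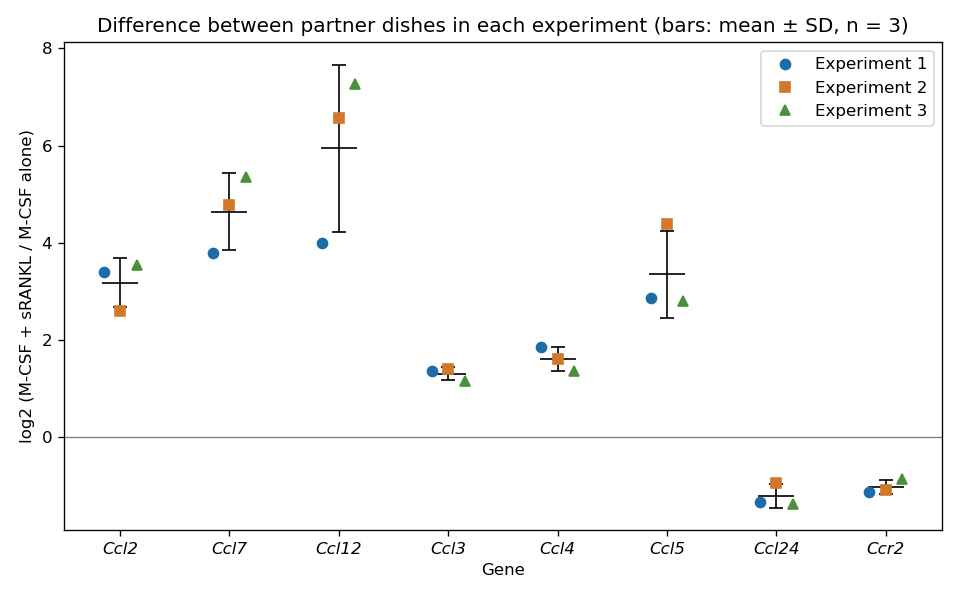
Log2 ratio of M-CSF + sRANKL to M-CSF alone between partner dishes (points, 1 per experiment) with the mean and SD of the 3 experiments (bars). The points of Ccl12 range from 3.99 to 7.27, those of Ccl3 from 1.14 to 1.40, and those of Ccl24 and Ccr2 lie below 0.

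The spread within a group separated the ligands too. With M-CSF alone, the brightest array exceeded the dimmest 9.29-fold for Ccl12, 3.14-fold for Ccl7 and 2.13-fold for Ccl2. With sRANKL the same figures were 1.23-fold, 1.12-fold and 1.11-fold. On the log2 scale the SD of Ccl12 in the controls was 1.65, which ranked 6 of 2859 rows from the largest, and that of Ccl7 was 0.83, which ranked 114. The SDs of these genes with sRANKL were 0.16 and 0.08, at ranks 1520 and 2326, against a median of 0.17 over all rows. Most rows of the table were more variable in the controls (72.7% of rows, median SD 0.26), and so were 5 of the 8 genes. The reverse held for Ccl3, Ccl4 and Ccr2, whose SDs with sRANKL were 0.33, 0.33 and 0.29 against 0.19, 0.21 and 0.17 with M-CSF alone. Ccl5 was variable in both groups, at 0.58 and 0.65.

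**Figure D3:**
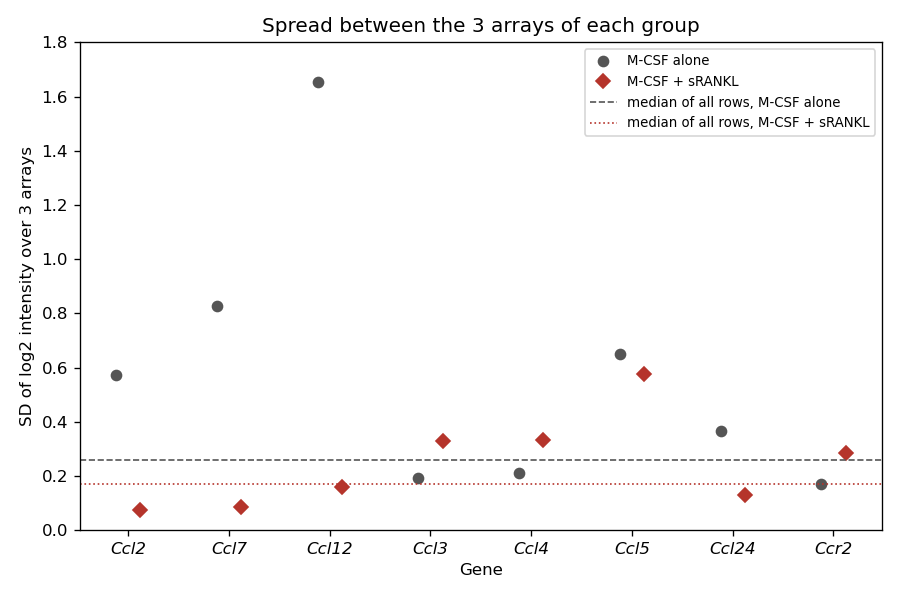
SD of log2 intensity over the 3 arrays of each group for the 8 genes, with the median SD of all 2859 rows as lines. Ccl12 reaches 1.65 with M-CSF alone and 0.16 with sRANKL, while Ccl3, Ccl4 and Ccr2 are more variable with sRANKL.

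Deviations from the group means, which leave out the difference between the groups, were compared over the 6 arrays as a description. The arrays are shared by all genes and partner dishes by each pair, so these values rest on few independent points. The pairs named were singled out after their values were seen. Ccl7 and Ccl12 deviated together (r = 0.98), as did Ccl3 and Ccl4 (r = 0.85). The SDs of Ccl7 and Ccl12 were 0.83 and 1.65 over the control arrays and 0.08 and 0.16 over the sRANKL arrays. Their r therefore rests mostly on the control arrays, with the Ccl12 value of 24.8 among them. Ccl2 had r = 0.15 with Ccl7 and r = -0.02 with Ccl12, although the gene lies next to Ccl7. Deviations of Ccl2 ran against those of Ccl24 (r = -0.93), and those of Ccl5 against those of Ccr2 (r = -0.73). Ccl2 and Ccl24 too varied more over the control arrays (SD 0.57 and 0.36) than over the sRANKL arrays (0.07 and 0.13).

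By the coordinates of the authors' list, for which the genome build is not given in the sources used here, the chromosome 11 ligands form a pair of groups within 1.63 Mb. Ccl2 (81849076 to 81850954, plus strand), Ccl7 (81859216 to 81861027, plus strand) and Ccl12 (81915347 to 81916905, plus strand) are 8.26 kb and 54.3 kb apart. After 1422 kb follow Ccl5 (83339280 to 83344020, minus strand), Ccl3 (83461346 to 83462859, minus strand) and Ccl4 (83476089 to 83478182, plus strand), which are 117 kb and 13.2 kb apart. Ccl24 is at 136045807 to 136048919 on chromosome 5 (minus strand) and Ccr2 at 124016922 to 124023289 on chromosome 9 (plus strand). For Ccl12, Ccl3 and Ccr2 these positions differ from the GRCm38.p6 positions of the promoter windows above. The list and the windows cannot be placed on the same scale. In the first group the mean ratio of these named genes increased in their order along the chromosome, from Ccl2 to Ccl7 to Ccl12. Genes of the region without a name here were not analysed, so no gradient along the chromosome is read from so few selected genes. Only 1 other named gene lies between Ccl2 and Ccl4. This is Slfn1, of the schlafen family, at 7.03-fold, and it was singled out after its value was seen. CC chemokine genes resemble one another in sequence, and shared signal between their probe sets was not tested.

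Of 40 listed genes of the CC family (24 ligands, 12 receptors and 4 atypical receptors), 9 are named in the table, the 8 above and Ccr7. The other 31 were not analysed here. Among the 9, 7 were higher and 2 lower, and over all 522 named genes 341 were higher and 181 lower. Ccr7, the receptor that leads dendritic cells to lymph nodes, had an intensity of 814.4, 680.2 and 377.8 in the sRANKL dishes and of 126.3, 101.5 and 112.5 in the control dishes, a difference of 5.25-fold. It was dimmest with sRANKL in Experiment 3, as were Ccl3, Ccl4 and Ccl5.

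Named genes outside the family with the most similar pattern were sought by Pearson's r of log2 intensity over the 6 arrays, among 513 genes, as a description. For the mean standardised profile of the 6 chromosome 11 ligands these were Hcar2, a hydroxycarboxylic acid receptor (r = 0.997, 2.72-fold), Clec4e, the C-type lectin Mincle (r = 0.997, 3.30-fold), and Bst2, tetherin (r = 0.996, 2.41-fold). For Ccl24 they were the transporter gene Abca9 (r = 0.993, 0.232 of the control level), Tmem37 (r = 0.990, 0.309) and Hpgd, a prostaglandin-degrading enzyme (r = 0.987, 0.208). All 3 shared with Ccl24 a dim control array in Experiment 2, as for Abca9 with 186.6, 115.9 and 198.9. For Ccr2 they were Fgd4 (r = 0.999, 0.474), Ctse, cathepsin E (r = 0.999, 0.376), and Nr1d2, a nuclear receptor of the circadian clock (r = 0.997, 0.478). Since every gene named differs between the groups by selection, a high r follows in part from that difference.

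Markers of cell types were counted among the named genes, 11 of 71 listed. A gene has a name here only through the authors' list of probe sets that differed at least 2-fold between the groups. Of all 522 named genes, 341 were higher and 181 lower. Listed markers without a name were not analysed, so the counts and sums below are a description of selected genes and not of cell content. Of 11 osteoclast markers 6 are named, all higher, and their summed intensity was 5391 to 7376 on the sRANKL arrays and 610.2 to 977.0 on the control arrays. Of 12 genes listed for neutrophils and their precursors, Ctsg, Mpo and Prtn3 have a name here, all 3 higher, with a summed intensity of 4618 to 7842 against 1390 to 2095. The dendritic cell gene Cd209a was lower, at 0.147, and the stromal gene Dcn higher, at 2.66-fold. No listed marker of T and NK cells, B cells, eosinophils and basophils, or monocytes and macrophages is named, so the labelled monocyte identity could not be checked on them. The part of such cells in the chemokine differences was not tested.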

How the data were processed

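Total RNA of 6 dishes was measured on Affymetrix Mouse Gene 1.0 ST arrays. The authors ran RMA in R (version 2.71, per the submitters' processing notes). They deposited intensities on a linear scale for 2890 probe sets, filtered beforehand by rules not given in the sources used here. RMA equalises array distributions, yet the median log2 intensity over this filtered table still ranged from 8.16 to 8.53 between arrays. Intensities are compared between arrays within that limit, and not between genes. A second deposited file holds the authors' own comparison (group means, fold, p-values), of which only the annotation of 656 probe sets was used. Columns were assigned by the samples' descriptions. Symbols were updated through the Entrez number (GRCm38.p6), and for each named gene the probe set with the highest mean was kept, giving 2859 rows with 522 named genes.

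The members and gene lists were chosen with earlier results of these data known. The rule for named genes took the 8 members, other named CC family genes, and the 3 genes most like each profile. Named besides these are Slfn1, chosen after its value was seen, and the cell type markers Ctsg, Mpo, Prtn3, Cd209a and Dcn, from the marker lists. Values were analysed as log2 intensity. limma 3.58.1 in R 4.3.3 (lmFit, eBayes, Benjamini-Hochberg adjustment over 2859 rows, no block) gave the share of rows called. Member values, ratios and SDs used Python 3.11.15, numpy 2.4.6 and pandas 2.3.3, and plots matplotlib 3.10.9. The code was tested on simulated data. Dishes of an experiment came from 1 pool, so the experiment number pairs them. Over all rows, deviations of partner dishes from their group means had r = 0.605, 0.564 and 0.645. The alternatives were median centring, quantile normalization, the replicate block, arithmetic means, a filter at a mean log2 of 7, limma-trend, the methods' Student test, all probe sets, and leaving out each array. With 3 arrays per group, the number of arrays sets the precision.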

Additional observations from a re-analysis of the deposited data

How the results depend on the processing

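All 8 genes and both distances kept their direction under every alternative run. Genes listed for a 2-fold difference on these same arrays could hardly reverse, so little is read from this. Median centring shifts all fold changes alike and cannot move the distances. Of 80 alternative values of the 8 genes, 73 moved by less than the SD between experiments and 7 by more. The replicate block cannot move a mean difference in this balanced pairing, so its values among the 73 were fixed in advance. Leaving out 1 of 3 arrays moves a group mean by less than that group's SD. Where the SD between experiments was the larger, as for Ccl12 (1.73 against 1.65 over the control arrays), these values were fixed too. The count of 73 is therefore not read as a sign of stability. All alternative values of Ccl12 fell among the 73, against its wide SD of 1.73. With median centring the log2 fold change was 1.15 for Ccl3 and -1.18 for Ccr2. With quantile normalization it was 1.06 for Ccl3, 1.32 for Ccl4 and -1.30 for Ccr2. Leaving out 1 array gave 1.19 to 1.49 for Ccl3, -1.16 to -0.88 for Ccr2, and 5.25 to 6.86 for Ccl12, whose fold change alone moved by over 1.5 times. The distance of the chromosome 11 ligands from Ccr2 was then 4.06 to 4.73, and from Ccl24 4.21 to 4.76. The replicate block left the fold changes as they were and gave 2613 rows past the threshold against 2235, so it moved that count by less than 1.5 times. With 1 array left out the count was 1864 to 2348, and under the other alternatives 1913 to 2267. Averaging several probe sets per gene was not run, since each of the 8 genes had 1. Both scaling steps used the filtered table, most of whose rows changed, and may also remove real change. Probe-level background was not used here, which limits the low control values of Ccl12.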
